A study of Mus musculus with 6 samples.

Results

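The small leucine-rich proteoglycans, a family of secreted matrix proteins, were examined in taste cells isolated from mice aged 2 or 6 months. The members are 10 genes taken by name, namely Dcn, Lum, Bgn, Fmod, Ogn, Aspn, Prelp, Omd, Epyc and Ecm2, out of 23361 rows of the authors' deposited table, and each of the 10 was found there. They were chosen by family name, with their FPKM values at both ages already known, so their differences between the ages are given as a description with no test. RNA was sequenced from taste cells drawn from the circumvallate and foliate (CV/Fol) papillae, which carry the taste buds of the rear tongue, of untreated C57BL/6 mice at 2 months (3 libraries) and 6 months (3 libraries). Each library was a pool of several mice, with fewer mice per pool at 6 months, so the libraries average over animals. The study asked which genes change between these ages, before the effects of aging become strong, and it followed Dcn as one of the genes linked to c-Fos. In taste cells of conditional c-Fos knockout mice, which kept some c-Fos, it found no reduction of Dcn RNA and left the reason open. The study had already reported Dcn as reduced in its RNA-sequencing, the data described here. The authors deposited 1 FPKM value per gene and age (mapped fragments scaled by transcript length and by the size of the library), which is their estimate over the 3 libraries. Values of single libraries were not analysed here, so no SD or p-value stands beside any value.

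A small leucine-rich proteoglycan has a central run of leucine-rich repeats that forms a curved binding surface, and many members carry glycosaminoglycan chains, long sulfated sugar polymers. They are secreted into connective tissue, where they bind collagen fibrils and set fibril thickness and spacing, and some hold growth factors such as TGF-beta or engage cell surface receptors. In the tongue, as in skin, the usual source is the fibroblast of the connective tissue under the epithelium. Decorin (Dcn), biglycan (Bgn) and asporin (Aspn) form one class, with chondroitin or dermatan sulfate on decorin and biglycan. Fibromodulin (Fmod), lumican (Lum), Prelp and osteomodulin (Omd) form the class that can carry keratan sulfate, epiphycan (Epyc) and osteoglycin (Ogn) form another class, and Ecm2 is a related matrix protein.

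Decorin and biglycan belong to the same class. The member transcripts were compared because reads from near-identical stretches could be credited to the wrong gene. Among the 45 pairs of members, the longest run of identical bases in the GENCODE M21 transcripts (GRCm38) was 17 bases, between Dcn and Bgn, and the next longest was 16 bases. The run lies in coding sequence of exon 7 of both genes. The printed stretches of 47 bases hold the run and its flanks. They lie at chr10:97513660-97513706 for Dcn and at chrX:73493261-73493307 for Bgn, both on the + strand. The stretches are shown with the shared run in capitals.
Dcn: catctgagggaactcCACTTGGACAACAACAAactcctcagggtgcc
Bgn: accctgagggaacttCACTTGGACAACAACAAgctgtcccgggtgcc
The bases directly beside the capitals differ between the genes, but much of the rest of the printed flanks is the same. The likeness is thus not confined to the capitals, although no longer unbroken run is shared.

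Decorin was the highest of the 10 members. Dcn had 42.0 FPKM at 2 months, compared with 27.3 FPKM at 6 months, and it stood above 90.6% of all genes in the table at 2 months and above 86.0% at 6 months. It made up 87.9% of the summed FPKM of the 10 members at 2 months and 88.2% at 6 months, and was 15.8 times as high as the next member, Prelp, at 2 months and 16.8 times at 6 months. FPKM is scaled per length, so levels of different genes can be set side by side.

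Prelp, which anchors collagen to basement membranes, had 2.66 FPKM at 2 months, against 1.62 FPKM at 6 months. Biglycan had 2.14 FPKM at 2 months, compared with 1.09 FPKM at 6 months. Dcn, Prelp and Bgn were the 3 members whose average of both ages was 1 FPKM or more, the level used here to count a gene as expressed, and the other 7 stayed under 1 FPKM at both ages. The order of Dcn, Prelp, Bgn, Omd and Ecm2 was the same at both ages, but with 1 value per age it cannot be said which neighbours in that order differ beyond the spread between libraries.

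**Figure D1:**
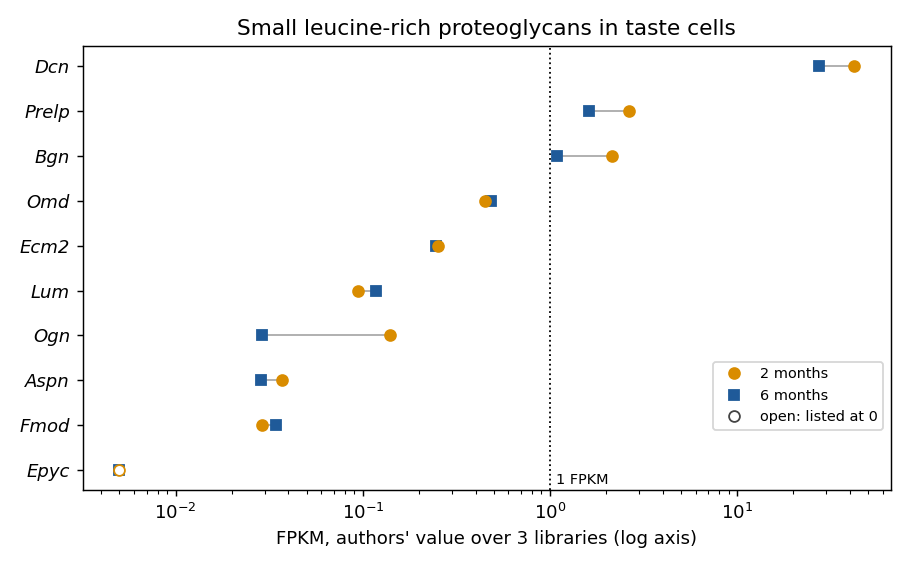
FPKM of the 10 small leucine-rich proteoglycan genes in CV/Fol taste cells (log axis). Circles are 2 months and squares 6 months, each the authors' value over 3 libraries. Dcn lies at 42.0 and 27.3 FPKM, Prelp and Bgn lie between 1 and 3 FPKM, and the rest lie under 1 FPKM, with Epyc listed at 0.

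The 7 members under 1 FPKM include genes known from cornea, cartilage, bone and tendon. Omd, a keratan sulfate proteoglycan of bone, had 0.447 FPKM at 2 months, against 0.483 FPKM at 6 months, the highest of the 7. Ecm2 had 0.253 FPKM at 2 months, compared with 0.245 FPKM at 6 months. Lumican, a main regulator of fibril spacing in the cornea and an abundant product of fibroblasts, had 0.0944 FPKM at 2 months, against 0.117 FPKM at 6 months.

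Dcn was thus 445 times as high as Lum at 2 months and 233.6 times at 6 months. Osteoglycin had 0.140 FPKM at 2 months, compared with 0.0291 FPKM at 6 months. Asporin, which binds TGF-beta and collagen in cartilage and periodontal ligament, had 0.0368 FPKM at 2 months, against 0.0287 FPKM at 6 months. Fibromodulin, a regulator of tendon fibrils, had 0.0289 FPKM at 2 months, compared with 0.0342 FPKM at 6 months. Epiphycan, a cartilage growth plate proteoglycan, was listed at 0 at both ages. Among 1117 olfactory receptor genes, of which 1055 were listed at 0 at both ages, the smallest value above 0 was 0.0106 FPKM at 2 months, against 0.00450 FPKM at 6 months. Fmod, Aspn and Ogn at 6 months stood only a few times above these values, and the number of fragments behind them is unknown.

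The 3 expressed members were all lower at 6 months. On the log2(FPKM + 1) scale, 6 minus 2 months, Dcn differed by -0.60, Bgn by -0.59 and Prelp by -0.48. The added 1 shrinks the difference of weakly expressed genes. As plain ratios of FPKM, the 2 month value was 1.54 times the 6 month value for Dcn, 1.64 times for Prelp and 1.97 times for Bgn. The summed FPKM of the 10 members was 47.8 at 2 months and 31.0 at 6 months, a ratio of 6 to 2 months of 0.647, and without Dcn the ratio was 0.628.

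Among all 12652 expressed genes, the median difference was -0.01, with quartiles of -0.10 and 0.08, and 53.7% were lower at 6 months. A line of 1.5-fold, or 0.585 on the log2 scale, was used to mark a difference. Dcn and Bgn lay just past it and Prelp short of it, while 1.72% of the 12652 genes were lower by as much. A difference at least as low as that of Dcn was seen for 207 of the genes, as low as that of Bgn for 216 and as low as that of Prelp for 281. Among genes of a like level, 1.88% of those with a mean of 20 to 100 FPKM, where Dcn lies, and 1.53% of those at 1 to 5 FPKM, where Bgn and Prelp lie, passed the line downwards. At 2-fold, 0 of the members and 1.04% of the genes passed. As a plain ratio, Dcn, Bgn and Prelp all reached 1.5, as did 2.22% of the 12652 genes. When the 6 month values were scaled by 1.02 to give both ages the same upper quartile, Dcn and Bgn had differences of -0.576 and -0.575, just short of the line, so whether they pass it turns on the scaling, while the direction of Dcn, Bgn and Prelp does not.

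**Figure D2:**
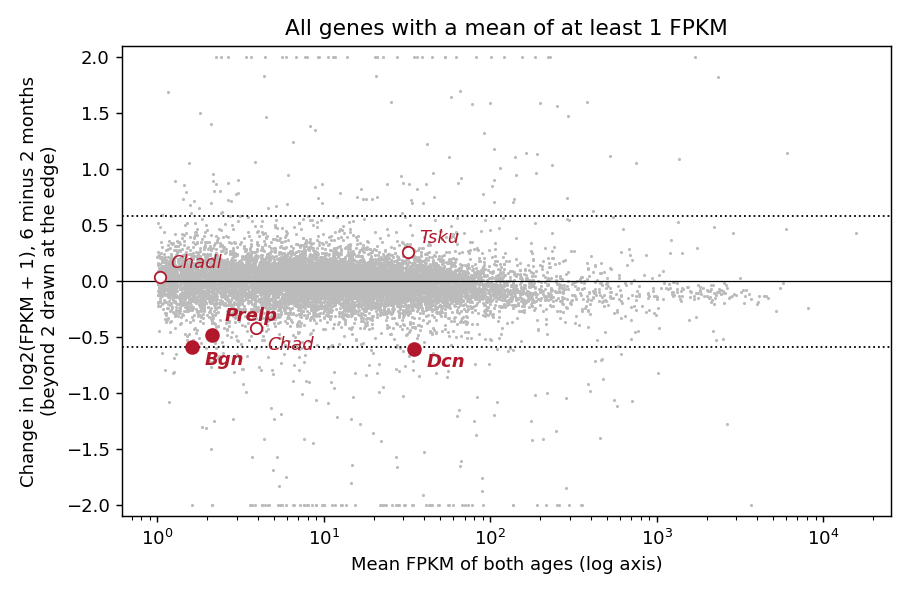
Difference in log2(FPKM + 1), 6 minus 2 months, against mean FPKM (log axis) for the 12652 expressed genes (grey), with dotted lines at 1.5-fold and values beyond 2 drawn at the edge. Filled red points are Dcn, Bgn and Prelp at -0.60, -0.59 and -0.48, below most but not all grey points. Open red points are the related genes Chad, Chadl and Tsku, which are not members.

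Some values of 0 in the deposited table may be failed estimates and not absent transcripts. Krt4, an abundant keratin of tongue epithelium, had 7334 FPKM at 2 months and was listed at 0 at 6 months, while Krt6a was listed at 0 at 2 months and had 3391 FPKM at 6 months. In all, 61 genes were listed at 0 at one age with at least 10 FPKM at the other. Leaving out the genes listed at 0 at one age gave 1.34% lower by 1.5-fold. Of the members, only Epyc was listed at 0.

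The genes lie in clusters, and within each cluster one family gene at most was expressed. On chromosome 10 of GRCm38, Dcn (97479609 to 97518143, 8 exons) is followed on the same strand by Lum, Kera and Epyc within 203 kb. Lum starts 47.0 kb beyond Dcn, yet had 0.0944 FPKM against 42.0 FPKM for Dcn at 2 months. Kera, the keratocan gene of the cornea, had 0.00748 FPKM at 2 months and was listed at 0 at 6 months. The gene before Dcn, Btg1, had 55.5 FPKM at 2 months, compared with 47.5 FPKM at 6 months.

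On chromosome 1, Prelp (133910304 to 133921414, 3 exons, - strand) lies between Optc, 2.30 kb away, and Fmod, 116 kb away. Optc, the opticin gene of the eye, had 0.00922 FPKM at 2 months, against 0.0100 FPKM at 6 months, and Fmod was as low as given above. Prelp overlaps Gm15851, an antisense gene on the other strand with no row in the deposited table. The library protocol is not stated to keep strand, so reads of the 2 genes cannot be told apart where they overlap.

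On chromosome 13, Ecm2, Aspn, Omd and Ogn follow each other on the + strand within 120 kb (49504810 to 49624501), and all 4 were under 1 FPKM. They lie inside Cenpp, a centromere protein gene on the - strand, which had 2.43 FPKM at 2 months, compared with 3.36 FPKM at 6 months, and none of their exons overlaps a Cenpp exon. Reads from Cenpp introns would fall on them, so their low values are uncertain for this reason too. Bgn (73483602 to 73495933, 8 exons) stands without a relative beside it on the X chromosome. Its neighbours Haus7 and Atp2b3 had 14.3 and 0.0267 FPKM at 2 months.

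**Figure D3:**
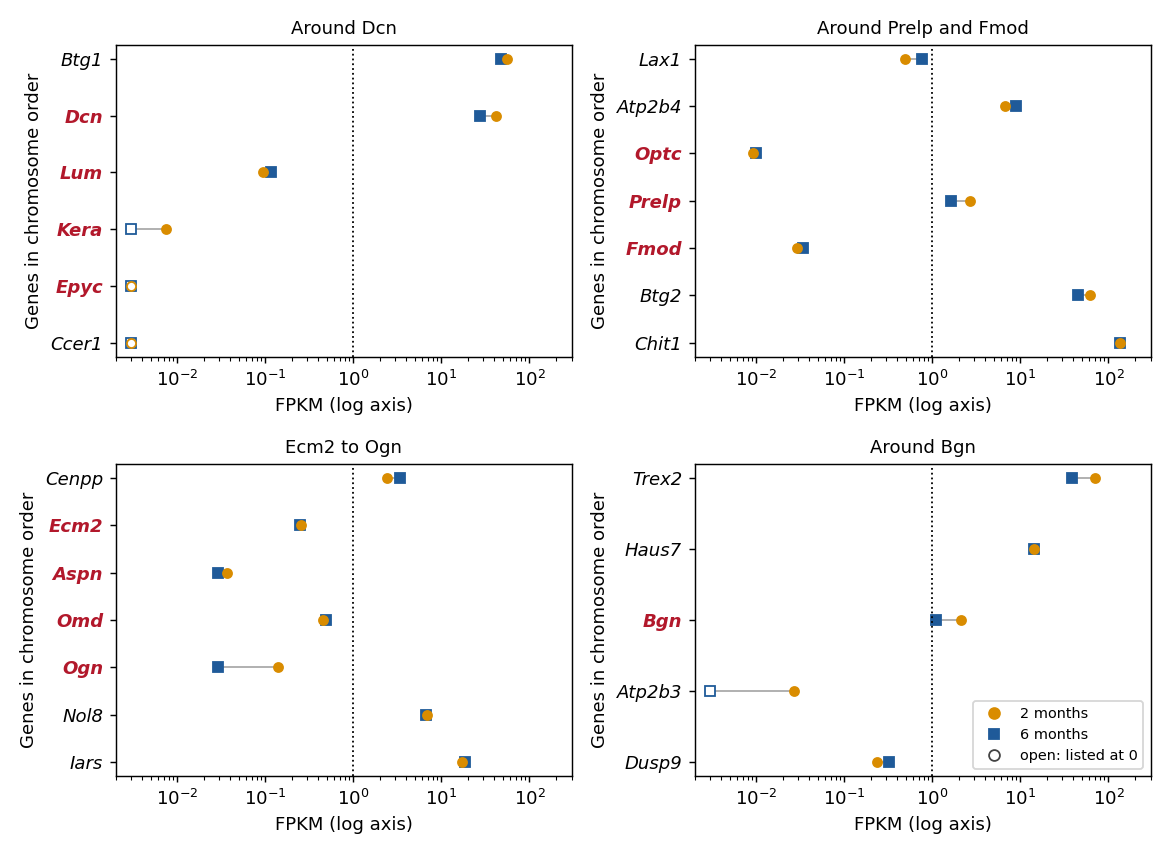
FPKM (log axis) of protein-coding genes in chromosome order around the members (circles 2 months, squares 6 months, open symbols listed at 0; family genes in red). Dcn stands at 42.0 FPKM at 2 months beside Lum, Kera and Epyc at 0.0944 FPKM or less, Prelp is the one expressed family gene of its group, and the 4 genes from Ecm2 to Ogn are all under 1 FPKM.

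Promoter windows from RefSeq (GRCm38.p6) were at hand for 8 of the 10 members, which excludes Dcn and Lum. The 250 bases before the start are shown for Bgn (chrX:73483351-73483600, + strand) and Prelp (chr1:133921402-133921651, - strand), which were both expressed and lower at 6 months, and for Aspn (chr13:49544193-49544442, + strand), which was near 0. Capitals mark matches on either strand to the GC box GGGCGG, to the letters CCAAT or to the TATA box TATAAA.
Bgn: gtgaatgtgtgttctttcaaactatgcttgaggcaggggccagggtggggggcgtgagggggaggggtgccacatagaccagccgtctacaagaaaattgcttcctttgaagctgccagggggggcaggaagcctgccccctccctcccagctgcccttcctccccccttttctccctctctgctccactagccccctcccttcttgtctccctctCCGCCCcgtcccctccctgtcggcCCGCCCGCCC
Prelp: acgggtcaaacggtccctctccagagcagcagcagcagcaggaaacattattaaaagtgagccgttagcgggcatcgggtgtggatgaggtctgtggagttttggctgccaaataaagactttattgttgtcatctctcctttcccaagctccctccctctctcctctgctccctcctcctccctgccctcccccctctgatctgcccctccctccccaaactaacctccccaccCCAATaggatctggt
Aspn: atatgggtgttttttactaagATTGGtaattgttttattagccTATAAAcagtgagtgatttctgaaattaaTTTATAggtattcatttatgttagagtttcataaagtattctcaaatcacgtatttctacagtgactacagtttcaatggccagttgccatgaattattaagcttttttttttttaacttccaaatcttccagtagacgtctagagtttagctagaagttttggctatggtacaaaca
The Bgn window had 64.4% G and C and 3 GC boxes, which overlap in part, and the Prelp window had 55.6% G and C and a CCAAT match close to the start. Prelp had no GC box, while Ecm2 had a GC box and Aspn a CCAAT match, so these motifs were not particular to expressed members. The windows of the 6 other members had 30.0% to 51.2% G and C, beside a median of 52.4% over 32851 windows of the same length. The GC box was present in 32.7% of all windows, CCAAT in 33.8% and the TATA box in 12.4%. The AP-1 site TGANTCA, searched because the study followed c-Fos and c-Jun, was in 0 of the 9 member windows and in 6.75% of all windows. This says only that these letters are not in these windows.

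The table also held relatives that are not members, and 3 of them were expressed. Tsku (tsukushi), which binds BMP ligands, had 29.2 FPKM at 2 months, against 35.1 FPKM at 6 months, with a difference of 0.26 in the other direction from Dcn. It was 0.696 times as high as Dcn at 2 months and 1.29 times as high at 6 months. Chad (chondroadherin), a cell-binding matrix protein of cartilage, had 4.64 FPKM at 2 months, compared with 3.22 FPKM at 6 months, a difference of -0.42. Chadl had 1.01 FPKM at 2 months, against 1.06 FPKM at 6 months. Of the 8 further relatives listed, these 3 were expressed, with a median difference of 0.04, and 0 passed the 1.5-fold line in either direction.

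Most enzymes that build the chondroitin and dermatan sulfate chains were expressed, while most of those listed for keratan sulfate were not. The expressed ones differed little between the ages. Of 23 genes for chondroitin and dermatan sulfate synthesis, 18 were expressed, 12 of them lower and 6 higher at 6 months, with a median difference of -0.01 and 0 past the line. Ugdh, which makes the sugar precursor UDP-glucuronate, had 30.4 FPKM at 2 months, compared with 29.5 FPKM at 6 months, and Fam20b, a kinase of the linker sugar, had 25.1 and 27.0 FPKM. Of 8 keratan sulfate enzymes, 3 were expressed, with a median of 0.02 and 0 past the line, and B3gnt2 and B4galt1, which add the sugars of the repeating chain, had 18.9 and 11.3 FPKM at 2 months.

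The binding partners split into those that were expressed and those that were not. Of 13 receptors and growth factors known to be bound by family members, 12 were expressed, 9 lower and 3 higher, with a median of -0.07 and 0 past the line. Cd14, the co-receptor that biglycan uses with Toll-like receptors, had 33.9 FPKM at 2 months, against 30.3 FPKM at 6 months, and Egfr, a receptor that decorin binds, had 13.6 and 15.2 FPKM. Of 13 proteases that can cut family members, 6 were expressed, with a median of -0.06 and 0 past the line. Htra1 and Mmp2 had 49.6 and 33.9 FPKM at 2 months, against 43.5 and 34.5 FPKM at 6 months.

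Of 27 other proteoglycans, 17 were expressed, 10 lower and 7 higher, with a median of -0.04 and 0 past the line. The cell surface proteoglycans Sdc1 and Sdc4 led this list, with 259.3 and 107.1 FPKM at 2 months, against 267.7 and 92.6 FPKM at 6 months.

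The collagens were at the other end. Of the 14 genes of fibril collagens and of collagens on the fibril surface, 0 reached an average of 1 FPKM, and their summed FPKM was 2.66 at 2 months and 2.46 at 6 months. Col11a2 was the highest, with 1.05 FPKM at 2 months, compared with 0.915 FPKM at 6 months, and Col2a1 followed with 0.356 and 0.352 FPKM.

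**Figure D4:**
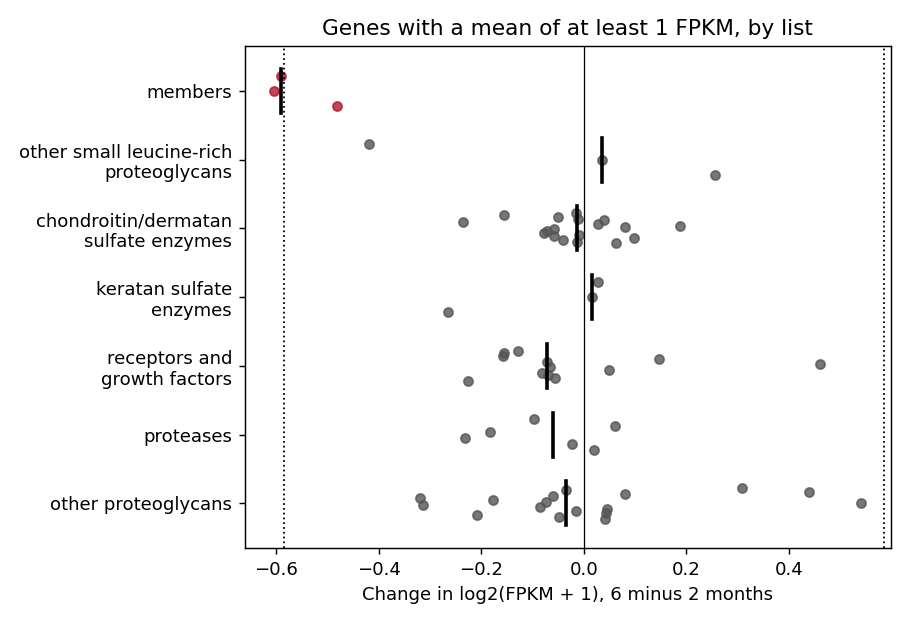
Difference in log2(FPKM + 1), 6 minus 2 months, of each expressed gene, by list, with the list median as a bar and dotted lines at 1.5-fold. The 3 expressed members lie between -0.60 and -0.48, and the medians of the other lists lie between -0.07 and 0.04. The collagens are not drawn because 0 of 14 reached 1 FPKM.

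Most markers of the cells that usually make these proteins were weak. Of 22 fibroblast markers, 5 were expressed, 2 lower and 3 higher at 6 months with 0 past the 1.5-fold line, and 17 were under 1 FPKM at both ages. Their summed FPKM was 38.8 at 2 months and 43.9 at 6 months, and Fbln1 and Fbln2 made up most of it. Fbln1 had 14.6 FPKM at 2 months, against 16.1 FPKM at 6 months, and Fbln2 had 12.1 and 16.8 FPKM. The other 20 markers, set apart after their values were seen, summed to 12.1 FPKM at 2 months and 11.1 FPKM at 6 months, so the direction of the sum turns on Fbln1 and Fbln2. Among these 20, Sparc, a collagen-binding matrix protein, had 4.47 FPKM at 2 months, against 3.35 FPKM at 6 months, and Thy1 had 1.62 and 2.28 FPKM.

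The main collagens of fibroblasts, named here after their values were seen, were near 0. Col1a1 had 0.134 FPKM at 2 months, compared with 0.0599 FPKM at 6 months, Col1a2 had 0.121 and 0.0658 FPKM, and Col3a1 had 0.144 and 0.0518 FPKM. Pdgfra, the receptor that marks most fibroblasts, was expressed at 1.10 FPKM at 2 months, against 1.05 FPKM at 6 months, while Pdgfrb had 0.0125 and 0.0149 FPKM. The level of Dcn was 315 times that of Col1a1 at 2 months and 456 times at 6 months. In RNA of mixed cells, fewer cells that make Dcn and less Dcn RNA per cell cannot be told apart.

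**Figure D5:**
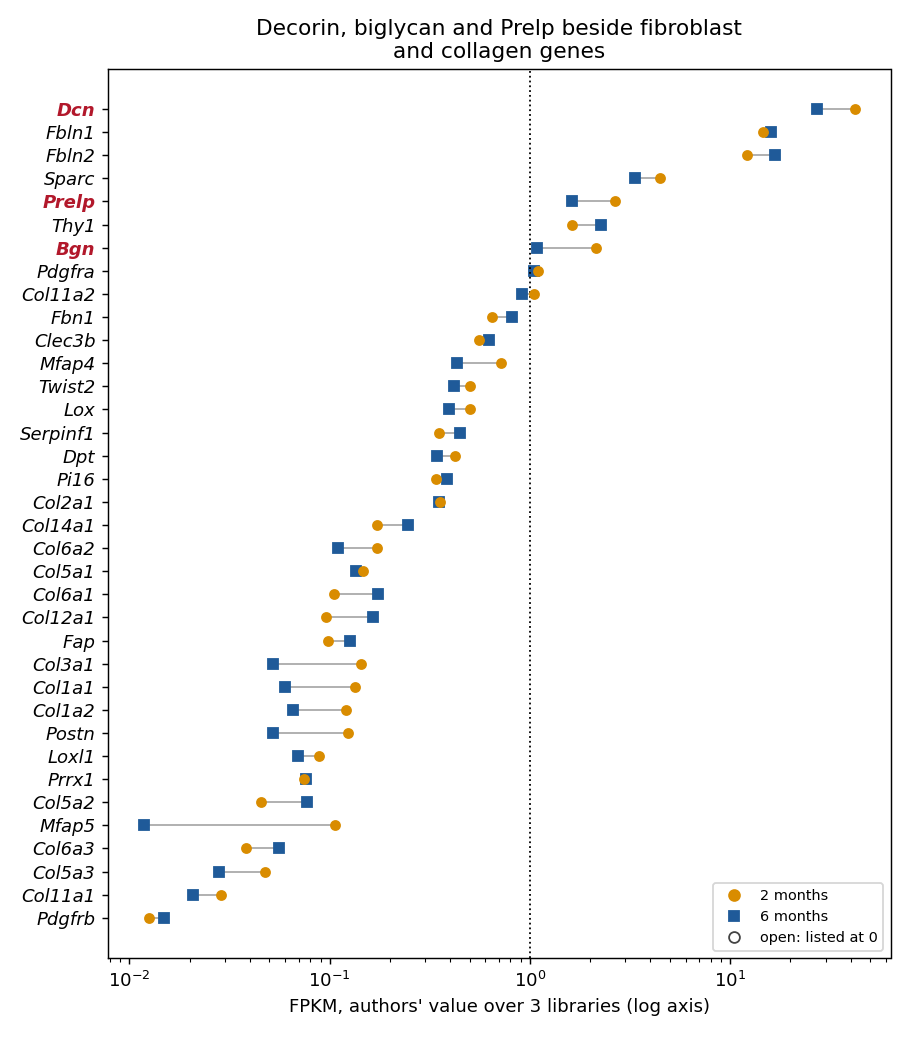
FPKM (log axis) of Dcn, Prelp and Bgn (red) beside 22 fibroblast markers and 14 collagens, 3 of which are in both lists (circles 2 months, squares 6 months). Dcn leads at 42.0 and 27.3 FPKM, while Col1a1, Col1a2 and Col3a1 lie under 0.15 FPKM.

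The labelled cell type was checked on taste cell markers. The 7 markers of type II cells, which detect sweet, umami and bitter compounds, were all expressed and summed to 224.7 FPKM at 2 months, compared with 233.9 FPKM at 6 months, led by Gnat3 and Plcb2. The 5 type III markers, led by Pkd2l1 and Snap25, summed to 31.3 and 36.3 FPKM, and the 3 type I markers, led by Entpd2 and Kcnj1, to 76.1 and 66.4 FPKM. Keratinocyte genes were also high, with 2180 FPKM of Krt5 at 2 months and 1962 FPKM at 6 months and 1287 and 1533 FPKM of Krt14, both genes of the basal epithelium. Krt10 and Krt1, keratins of the layers above the basal cells, were named after their values were seen and were lower at 6 months. Krt10 had 149.7 FPKM at 2 months, compared with 70.5 FPKM at 6 months, a difference of -1.08, and Krt1 had 40.7 and 27.2 FPKM, a difference of -0.57. Leaving out Krt4 and Krt13, which were listed at 0 at 6 months, the 5 keratinocyte genes had a median difference of -0.17, with 4 lower and 1 higher, and summed to 3763 FPKM at 2 months, against 3686 FPKM at 6 months.

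Markers of other cells moved in part with age. The 8 skeletal muscle genes summed to 13.1 FPKM at 2 months, against 26.2 FPKM at 6 months, and 5 were higher by at least 1.5-fold, where 1.05% of all genes were. The 4 adipocyte markers summed to 0.746 and 3.54 FPKM, nearly all of it Fabp4, with Adipoq, Plin1 and Cidec under 0.05 FPKM. The 6 endothelial markers summed to 2.01 and 2.02 FPKM, the 6 smooth muscle and pericyte markers to 5.13 and 4.96 FPKM, and the 5 leukocyte markers to 18.8 and 17.1 FPKM. The 7 markers of cartilage, bone and tendon summed to 10.9 and 11.9 FPKM, mostly Sox9, with Acan and Ibsp at or near 0. Of 5 genes of myelin and glia, 3 were expressed, all lower at 6 months with 0 past the line and a median of -0.27. Their sum was 293.9 FPKM at 2 months, against 245.4 FPKM at 6 months, nearly all of it Mal, a membrane protein that epithelial cells also make. Sox10, a transcription factor of glia, was named after its values were seen and had 1.95 FPKM at 2 months, compared with 1.05 FPKM at 6 months, a difference of -0.53, while Mbp had 16.2 and 16.0 FPKM. The part of these cells, and of the keratinocytes, in the lower values of Dcn, Bgn and Prelp was not tested.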

How the data were processed

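RNA-sequencing covered CV/Fol taste cells in 3 libraries at 2 months and 3 libraries at 6 months, grouped by the age in the sample labels. Replicates had no values of their own. The authors mapped reads to GRCm38/mm10 with TopHat2 2.0.7, quantified RefSeq genes as FPKM with Cufflinks 2.1.1 and deposited 1 FPKM value per gene and age from Cuffdiff, whose library normalization is not given in the sources used here. Column B was read as 6 months and S as 2 months by the letters of the sample titles. The deposited table also holds a p-value of the authors' own comparison, which was not used. Sequencing depth is unknown, since FPKM of pooled libraries does not keep it.

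Differences were computed as log2(FPKM + 1), 6 minus 2 months, over all genes. A gene counted as expressed when both ages averaged 1 FPKM or more, and 1.5-fold was the line for a difference. With 1 value per age no test was made. Members and gene lists were chosen with earlier results of these data known. Named genes were all 10 members, and at most the 2 highest of each other list, with exceptions marked in the text or chosen after their values were seen. No most-like genes were named, since 2 values give no pattern. Loci and transcripts came from GENCODE M21 (GRCm38) and promoter windows from RefSeq (GRCm38.p6). One listed gene is not reported here. The counting was tested on simulated data. Alternatives were a pseudocount of 0.1, equal upper quartiles, no filter, an average of 5 FPKM or more and a 2-fold line. Scripts ran in Python 3.11.15 with pandas 2.3.3, numpy 2.4.6 and matplotlib 3.10.9.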

Additional observations from a re-analysis of the deposited data

How the results depend on the processing

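No paired analysis was possible because only 1 value per age was deposited, and for the same reason no replicate could be left out. The count of expressed members lower by 1.5-fold was 2, and it was 1 at an average of 5 FPKM or more, 0 with equal upper quartiles, 0 at the 2-fold line and 3 with a pseudocount of 0.1 or, chosen after seeing the data, as a plain ratio. Of all expressed genes, 1.72% passed the 1.5-fold line, 1.04% the 2-fold line and 2.22% as a plain ratio. That share was not computed at the other settings. The count of members lower at all was 3, and it was 6 with no filter and 1 at an average of 5 FPKM or more. It stayed 3 with equal upper quartiles, where 45.8% of all expressed genes were lower. With a pseudocount of 0.1 it was also 3, where 53.7% were lower. The share lower was not computed with no filter or at 5 FPKM. The median difference of the members was -0.59 over the 3 expressed ones and -0.0106 over all 10. The pseudocount of 0.1 moved Bgn from -0.59 to -0.92, Prelp from -0.48 to -0.68, Ogn from -0.15 to -0.89 and Lum from 0.03 to 0.16, the last 2 under 1 FPKM at both ages. The ratio of the summed FPKM stayed between 0.628 and 0.661. Equal upper quartiles moved the median of all expressed genes from -0.01 to 0.01. Of 24 alternative medians of the other lists, 23 lay within 0.1 of the value reported. The exception was the further relatives at an average of 5 FPKM or more, 0.26, where Tsku alone was left. The unknown depth limits what can be said of the 7 members under 1 FPKM.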
